A study of Arabidopsis thaliana with 8 samples.

Results

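The LATERAL ORGAN BOUNDARIES domain (LBD) family was examined in the chromatin of lateral organ founder cells and of their neighbours in Arabidopsis thaliana. The set holds 33 loci, LOB itself and 32 numbered LBD genes, of 42 loci that the gene table names as LOB, LBD or AS2 and of 27444 nuclear protein-coding genes. AS2 and 8 other LBD loci were not part of the set. The loci were listed by family, and the family was proposed with the values below in view, so the coverage contrast of the members is a description. Calls from a fit over all genes are given only as counts beside their share of all genes, and support nothing here.

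LBD proteins are plant transcription factors that share a conserved LOB domain with a zinc-finger-like cysteine motif at its start. Class I members also carry a leucine-zipper-like stretch through which they pair, and class II members lack a complete one. LOB was described in the band of cells between a meristem and a new organ. Other class I genes act downstream of auxin in lateral root initiation, in cambium and vascular tissue, or in pollen, while class II genes include regulators of the response to nitrogen.

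GFP-positive (GFP+) protoplasts, labelled as founder cells, and GFP-negative (GFP-) protoplasts, labelled as meristem cells depleted of founder cells, were sorted from inflorescence apices of plants aged 4 to 5 weeks. Both populations carried the DRNL::erGFP reporter, driven by the promoter of the founder cell gene DRNL, and the ap1cal genotype, in which both AP1 and CAL are mutated and inflorescence meristems proliferate in place of flowers. Accessible DNA was tagged with a transposase (ATAC-seq) in 3 libraries per population. Each sort pooled about 700 to 900 plants, with 95000 to 300000 GFP+ and about 300000 GFP- protoplasts. A further 2 sheared chromatin controls were not analysed here. Because apices were pooled and the sort used 1 reporter, GFP- cells are a mixture of all cells without the signal.

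For each library the deposited data list transposase hypersensitive sites (THSs), stretches of 100 bp windows called accessible. The lists held 24156 to 26216 sites over 17.3 to 19.6 Mb in the GFP+ libraries and 26001 to 28757 sites over 17.8 to 19.4 Mb in the GFP- libraries. Read depth is unknown. At DRNL the covered share was 55.7%, 59.0% and 66.8% in the GFP+ libraries and 39.1%, 35.8% and 29.1% in the GFP- libraries, without overlap. The reporter carries DRNL promoter sequence too, and its part in this value was not tested.

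Coverage is the percent of a gene plus 1000 bp on each side that THSs cover. The 33 windows measured 2490 to 5230 bp, so 1 step of 100 bp moves a value by 1.91 to 4.02 percentage points. The gene table gives no strand, so flanks are called after the start coordinate (the lower position) and the end coordinate of a gene. In these bulk samples, fewer cells with an open site and a less open site in each cell cannot be told apart.

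Most members were either open in every library or without any site, as were most of all genes. A THS stood in the window in all 6 libraries at 20 of the 33 loci (60.6%, against 71.5% of all protein-coding genes). There was one in no library at 8 (24.2%, against 18.0%) and in some at 5 (against 2875 of 27444 genes). Mean coverage per library over the 33 genes was 21.4%, 24.1% and 21.1% in GFP+ and 22.3%, 24.2% and 23.9% in GFP- libraries, and the groups overlapped. The group means were 22.2% ± 1.69 and 23.5% ± 1.02, against 18.3% ± 1.32 and 18.8% ± 0.886 over all genes (SD, n = 3 each). The mean difference (GFP+ minus GFP-) over the family was -1.30 percentage points, and the median difference was 0 both in the family and over all genes.

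Single genes differed in both directions. All 3 GFP+ libraries lay above all 3 GFP- libraries at 4 members (LBD36, LBD29, LBD39 and LBD18), a separation seen at 2.88% of all genes, and below them at 3 members (LBD11, LBD1 and LBD21), seen at 5.29% of all genes (8.17% in both directions together). The groups overlapped at the other 26. In limma's fit of coverage over 21886 genes with a site in at least 2 libraries, 23 members entered. It called 0 of these higher, against 0.347% of the genes fitted, and 2 lower (LBD11 and LBD21), against 1.14%, or 1.48% for both directions (Benjamini-Hochberg adjusted p under 0.05). At an unadjusted p under 0.05 the counts were 4 higher, against 3.84% of the genes fitted, and 3 lower, against 6.95%. LBD21 entered the fit through its GFP- libraries alone and LBD29 through its GFP+ libraries alone, since each was listed at 0 in the other population, and LBD21 had the same value in all 3 GFP- libraries. Leaving out GFP+ replicate 1, 2 or 3 or GFP- replicate 1 or 3 ended the call of LBD11. LBD21 was called in each of these fits, LBD1 was also called lower without GFP- replicate 2, LBD29 higher without GFP+ replicate 3 and LBD17 higher without GFP- replicate 1. Since the set was chosen with this contrast known, nothing is read from these counts.

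**Figure D1:**
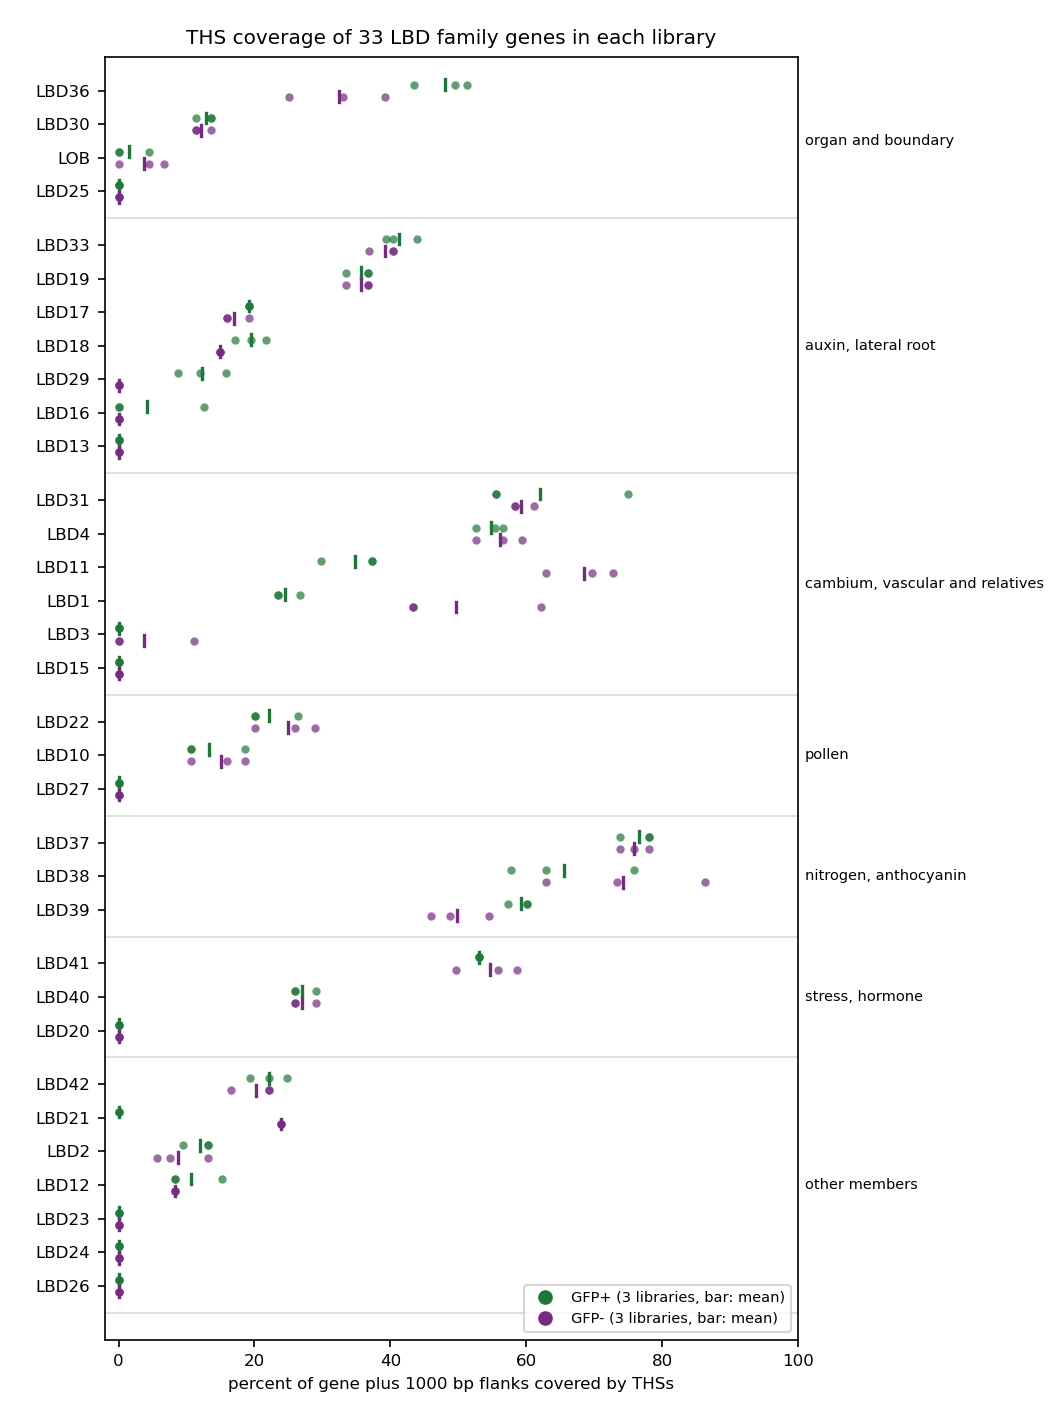
Percent of the gene plus 1000 bp flanks covered by THSs (x axis) for the 33 members (rows, grouped by role). Points are libraries, 3 GFP+ (green, upper) and 3 GFP- (purple, lower), and bars are group means. LBD11, LBD1 and LBD21 lie apart to the left in GFP+ libraries and LBD36, LBD29, LBD39 and LBD18 to the right, while 8 members sit at 0 in all libraries.

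Among members with a part in organ and boundary formation, LBD36 differed and LOB did not separate the groups. LBD36 (AT5G66870), listed in the gene table as ASL1 and a close relative of AS2, had 43.5%, 51.3% and 49.6% coverage in GFP+ libraries and 33.1%, 25.0% and 39.2% in GFP- libraries. The means were 48.1% ± 4.07 and 32.4% ± 7.09 (SD, n = 3 each), a difference of 15.7 percentage points. The lowest GFP+ library stood above the highest GFP- library. No other annotated gene lay within its window.

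The sites of LBD36 differed at their edges. On the end coordinate side a site up to chromosome 5 position 26710200 (TAIR10) began at 26709301 in all 3 GFP- libraries. It began at 26709201 in GFP+ replicate 1 and at 26708901 in GFP+ replicates 2 and 3. A separate 200 bp site (26708901 to 26709100) stood before it in GFP+ replicate 1 and in GFP- replicate 3. On the start coordinate side GFP+ replicates 1 and 3 had 1 site of 1200 bp (26704701 to 26705900). GFP+ replicate 2 had shorter, separate sites there, as did the GFP- libraries. Covered bases in all GFP+ and no GFP- library amounted to 2 stretches of 100 bp, one within the gene (chromosome 5, 26707901 to 26708000) and one in the flank (26709201 to 26709300). The flanks alone had 87.1%, 76.2% and 92.0% coverage in GFP+ libraries, against 56.2%, 56.2% and 71.2% in GFP- libraries. In the gene body the groups overlapped, with 14.1%, 34.4% and 20.8% in GFP+ and 17.5%, 3.92% and 17.5% in GFP- libraries. The LBD36 difference thus lay mostly in its flanks. With flanks of 500 bp or 2000 bp the groups overlapped, at differences of 13.9 and 15.1 percentage points.

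LOB (AT5G63090), the founding member, was nearly closed in both populations. It was covered over 0%, 4.44% and 0% of its window in GFP+ libraries and 6.66%, 0% and 4.44% in GFP- libraries. The only sites were of 200 to 300 bp at the start coordinate of the gene (chromosome 5, within 25308501 to 25308800), and they ranked low, with 84.9% to 96.4% of the sites of each list scoring higher. LOB therefore had a weak site in 1 GFP+ and 2 GFP- libraries, and the groups overlapped. The difference was -2.22 percentage points with all sites and 1.48 with the same number of top-scoring sites from each list.

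LBD30, known as JAGGED LATERAL ORGANS (JLO), which acts in auxin and KNOX gene control in organs, had 13.6%, 11.3% and 13.6% in GFP+ and 11.3%, 13.6% and 11.3% in GFP- libraries. These values swap between 2 levels that are 1 step apart. Beside it lay one of the strongest sites of the family, of 1700 bp on chromosome 4 (87401 to 89100), between LBD31 and LBD30, which are neighbours 2836 bp apart. The gene table places a lncRNA gene, AT4G03535, within that site. The position of the site was the same in all 6 libraries, and 2.56% to 3.09% of sites scored higher in GFP+ and 3.69% to 4.98% in GFP- libraries. LBD25 had no site in any library, and its nearest THS lay 1153 bp away in each.

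In the auxin and lateral root group, all GFP+ values lay above all GFP- values at 2 of 7 genes (LBD29 and LBD18). Over all genes this was seen at 2.88%. The difference in means was positive at 5 of the 7, negative at 0 and 0 at 2, while over all 27444 genes it was positive at 9381, negative at 10126 and 0 at 7937. At LBD33, LBD17 and LBD16, which are among the 5, the groups overlapped, and LBD16 had a site in GFP+ replicate 2 alone. Coverage over the 7 genes averaged 18.8% ± 2.31 in GFP+ and 15.3% ± 0.261 in GFP- libraries (SD, n = 3 each).

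Lists of boundary and epidermis markers were measured beside this group, and all 6 genes had a positive difference. The smallest was 0.86 percentage points at ATML1, where the groups overlapped. The 3 organ boundary markers (CUC1, CUC2 and CUC3) averaged 44.9% to 51.5% in GFP+ and 37.6% to 42.4% in GFP- libraries, and 1 of the 3 (CUC2) separated the groups. The 3 epidermis markers (ATML1, PDF2 and FDH) averaged 19.6% to 22.6% in GFP+ and 15.7% to 19.2% in GFP- libraries, and 2 of the 3 (PDF2 and FDH) separated them. At CUC2, PDF2 and FDH all GFP+ values lay above all GFP- values, as at 2.88% of all genes. None of the 6 boundary and epidermis genes was at 0 in any library. All 4 founder cell markers (DRNL, DRN, LFY and AHP6) had a positive difference, and 3 of them, all but DRN, separated the groups. Of the 3 stem cell niche markers (WUS, CLV3 and CLV1) 0 separated the groups, and 2 had a negative difference. The part of these markers in the LBD values was not tested.

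LBD29 (AT3G58190), a target of the auxin response factors ARF7 and ARF19 in lateral root initiation, was covered over 12.04%, 15.8% and 8.80% in GFP+ libraries, and its window was listed at 0 in all 3 GFP- libraries. A 500 bp region beyond the end coordinate (chromosome 3, 21550201 to 21550700) had a THS in all GFP+ and no GFP- library. Such a region stands in the window of 0.383% of all genes. Its sites were weak, with 87.5%, 92.8% and 89.1% of the sites of GFP+ replicates 1, 2 and 3 scoring higher. GFP+ replicate 2 had a further site nearer to the gene, at 329 bp, and one that reached just into the window on the other side. With 500 bp flanks the difference was 2.75 percentage points, against 12.2 with 1000 bp, and the groups overlapped.

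LBD18 (AT2G45420), which acts with LBD33 in activating the cell cycle gene E2FA during lateral root initiation, had 19.5%, 21.7% and 17.2% in GFP+ libraries and 14.9% in each GFP- library. The difference of 4.56 percentage points came from 1 to 3 steps of 100 bp at the edges of 2 sites that all libraries shared. One stretch of 100 bp beyond the end coordinate (chromosome 2, 18720901 to 18721000) was covered in all GFP+ and no GFP- library.

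LBD16 (AT2G42430), another ARF7 and ARF19 target of lateral root initiation, had a site in GFP+ replicate 2 alone, over 12.5% of its window, with 83.4% of sites scoring higher. The groups overlapped, since the other 5 libraries were listed at 0. LBD17, its neighbour at a distance of 3363 bp, had 19.1% in each GFP+ library and 19.1%, 15.9% and 15.9% in GFP- libraries. LBD33 had 41.2% ± 2.43 and 39.2% ± 2.06, and LBD19, the neighbour of LBD18, had 35.7% ± 1.93 in both populations (SD, n = 3 each). LBD13, which also acts in lateral root formation, had no site in its window. LBD16 and LBD17 shared no region, and neither did LBD18 and LBD19.

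Members known from the cambium and the vascular system held the largest differences of the family, both lower in GFP+ libraries. LBD11 (AT2G28500), a regulator of vascular cambium activity, had 37.3%, 37.3% and 29.9% in GFP+ libraries and 69.7%, 62.9% and 72.8% in GFP- libraries. The means were 34.8% ± 4.31 and 68.4% ± 5.08 (SD, n = 3 each), a difference of -33.6 percentage points. Every GFP- library was far above every GFP+ library.

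The sites of LBD11 differed mainly in extent, with 4 to 5 in each GFP+ library and 5 in each GFP- library. A region of 700 bp within the gene (chromosome 2, 12186301 to 12187000) had a THS in all 3 GFP- and no GFP+ library. Of it, 400 bp were covered in all 3 GFP- libraries. Its sites were weak, with 82.8%, 85.6% and 60.15% of the sites of GFP- replicates 1, 2 and 3 scoring higher. A second stretch within the gene was 1 site of 1000 bp (12187101 to 12188100) in each GFP- library, with 24.7% to 28.1% of sites scoring higher. In GFP+ libraries it was broken into 2 sites of 200 to 500 bp, with 65.1% to 74.5% of sites scoring higher. In all, 800 bp of the window were covered in all GFP- and no GFP+ library, and 1100 bp in all 6. The body alone had 39.3%, 44.2% and 34.3% in GFP+ libraries and 78.9%, 73.9% and 88.8% in GFP- libraries, and the flanks 35.4%, 30.4% and 25.4% in GFP+ and 60.4%, 51.7% and 56.7% in GFP- libraries. Body and flanks thus differed in the same direction, and no other annotated gene lay in the window.

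LBD1 (AT1G07900), a close relative of LBD11 with a part in secondary growth, had 23.5%, 26.6% and 23.5% in GFP+ libraries and 43.3%, 62.2% and 43.3% in GFP- libraries. The means were 24.5% ± 1.82 and 49.6% ± 10.9 (SD, n = 3 each), a difference of -25.1 percentage points. All GFP+ values were below all GFP- values. A 500 bp region across the start coordinate of the gene (chromosome 1, 2442301 to 2442800) had a THS in all GFP- and no GFP+ library. Of it, 300 bp were covered in all GFP- libraries. Its sites were weak, with 79.3%, 77.8% and 63.2% of the sites of GFP- replicates 1, 2 and 3 scoring higher. Sites on the end coordinate side overlapped the neighbouring genes AT1G07902 and AT1G07901 and were present in all 6 libraries. LBD1 and LBD11 thus each held a GFP- region at the lower end of the gene.

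The other genes of this group did not separate the populations. LBD4, which acts at the boundary of procambium and phloem, had 54.9% ± 2.03 in GFP+ and 56.2% ± 3.38 in GFP- libraries. LBD31, a further class I gene, had 55.6%, 75.01% and 55.6% in GFP+ and 58.3%, 61.1% and 58.3% in GFP- libraries. GFP+ replicate 2 alone stood out there, with an additional 400 bp site and a wider site over the start coordinate. LBD3 (ASL9), a cytokinin-responsive gene, had a site only in GFP- replicate 3 over 11.1% of its window, and LBD15 had none.

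A list of 4 phloem and xylem markers (SUC2, APL, VND6 and VND7) was measured beside this group. APL and VND6 were listed at 0 in all 6 libraries. Mean coverage of the list was 5.17% to 5.24% in GFP+ and 4.23% to 7.75% in GFP- libraries, and 0 of the 4 separated the groups. For the 3 mesophyll markers (RBCS3B, RBCS1A and LHCB1.1) the list mean was 34.6% to 39.4% in GFP+ and 40.6% to 43.0% in GFP- libraries, and none was at 0. RBCS3B was lower in all GFP+ libraries (as 5.29% of all genes were), by a mean difference of -16.4 percentage points. RBCS1A and LHCB1.1 had differences of 0.67 and 0.62 with overlapping groups. The part of other cell types in the LBD1 and LBD11 values was not tested.

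**Figure D2:**
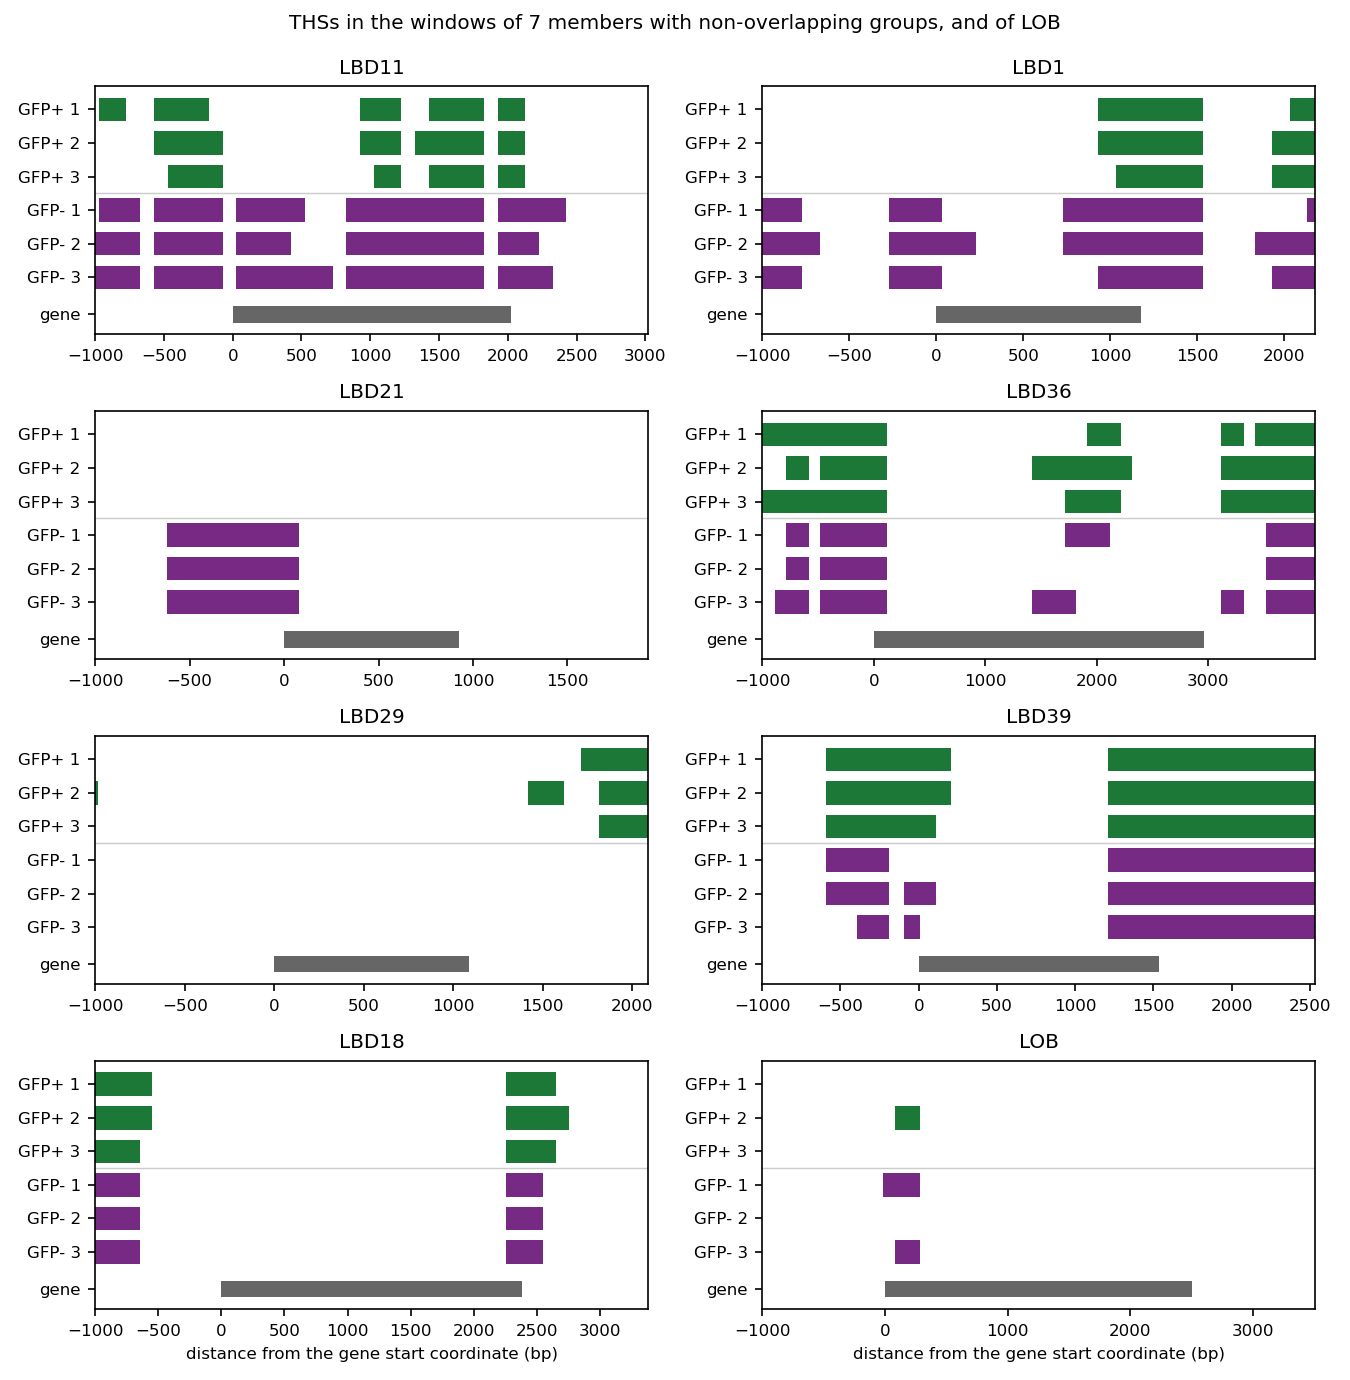
THSs (bars) in the window of each gene in the 3 GFP+ (green, upper rows) and 3 GFP- (purple, lower rows) libraries, by distance in bp from the gene's start coordinate, with the gene in grey. The panels show the 7 members whose groups did not overlap, and LOB. LBD21 has a site of 700 bp in each GFP- library and none in GFP+ libraries, LBD29 has sites in GFP+ libraries alone, and LBD39 and LBD18 differ at the edges of shared sites.

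LBD21 (AT3G11090), a class I gene, differed in presence as a whole. It had no THS in any GFP+ library and 23.9% coverage in each GFP- library, from a single site with the same limits in all 3. The site of 700 bp ran across the start coordinate of the gene (chromosome 3, 3474301 to 3475000) and had 79 bp within it. Its score was intermediate, with 55.9%, 31.6% and 39.3% of the sites of GFP- replicates 1, 2 and 3 above it. In GFP+ libraries the nearest THS was 1453 bp from the gene. LBD21, LBD1 and LBD11 were the 3 members with a region open in GFP- libraries alone, a feature in the window of 2.13% of all genes.

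In the authors' deposited table, LBD21 was the 1 member among the genes with dTHS-down sites (1.37% of all protein-coding genes), and 0 members were among those with dTHS-up sites (0.412%). The direction of these columns is not stated. The genes in the dTHS-down column of the authors' deposited table had a median coverage difference of -11.8 percentage points (GFP+ minus GFP-) in the site lists, and those in its dTHS-up column one of 7.85. The authors' deposited table did not list LBD11 or LBD1 in either column.

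Class II genes were open in both populations. All 6 (LBD37 to LBD42) had sites in every library, and 5 of them lay above the 75th percentile of all genes in mean coverage (26.9%), as did 7 of the 27 class I genes. LBD40 (26.98%) lay just above this limit, and the next member below it was LBD22 (23.6%). Median coverage over the 6 libraries was 54.2% in class II and 10.4% in class I, and 13.7% over all genes. All 8 members without a site and all 11 at or below the 25th percentile of all genes (4.12%) were of class I.

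**Figure D3:**
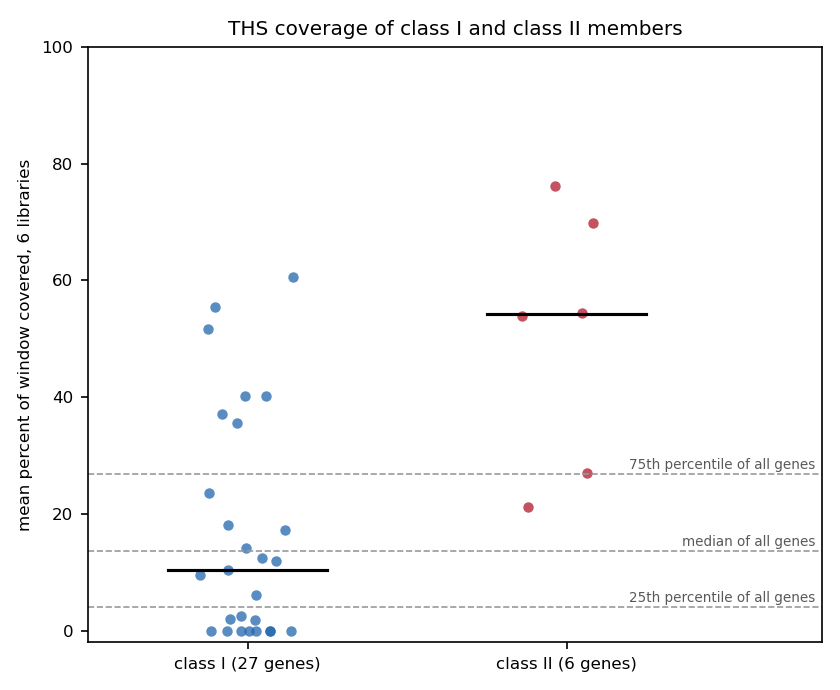
Mean percent of the window covered over the 6 libraries (y axis) for 27 class I and 6 class II members. Points are genes, black bars are medians (10.4% and 54.2%), and dashed lines are the 25th percentile, median and 75th percentile of all protein-coding genes. The class II genes lie above the median of all genes, while class I spans 0% to 60.7%.

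LBD37, LBD38 and LBD39, repressors of anthocyanin synthesis that respond to nitrogen, were among the most open members. LBD37 had the highest mean coverage of the family, 76.6% ± 2.48 in GFP+ and 75.9% ± 2.15 in GFP- libraries (SD, n = 3 each), higher than 98.3% of all genes, and a site of 1600 to 5400 bp reached over its start coordinate in each library. At most 1.66% of the sites of a list scored higher than the best site of LBD37.

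LBD39 (AT4G37540) separated the groups, with 60.2%, 60.2% and 57.3% in GFP+ libraries and 48.8%, 54.5% and 46.0% in GFP- libraries. The difference of 9.43 percentage points lay at the start coordinate. There the GFP+ libraries had 1 site of 700 to 800 bp (chromosome 4, from 17638801), and the GFP- libraries had 1 or 2 shorter sites of 100 to 400 bp. The site over the end coordinate, of 3100 to 3400 bp, was among the top 2.09% of each list in all libraries. LBD39 thus shared its main site between the populations.

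LBD38 had 57.8%, 75.9% and 63.0% in GFP+ libraries and 63.0%, 86.3% and 73.3% in GFP- libraries, so the groups overlapped. Replicate 2 was the highest in both populations. Its body had 41.1% ± 21.4 in GFP+ and 62.5% ± 21.4 in GFP- libraries (SD, n = 3 each), a difference no larger than the SD. By replicate number the body had 19.6%, 62.5% and 41.05% in GFP+ and 41.05%, 83.9% and 62.5% in GFP- libraries. The GFP+ value was the lower one at each number, but the labels do not say whether the numbers pair libraries.

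The groups overlapped at the remaining class II genes. LBD41, a gene induced by low oxygen, had 53.1% in each GFP+ library and 54.7% ± 4.61 in GFP- libraries. LBD40, a gibberellin-responsive gene, had 26.98% ± 1.81 in both populations, and LBD42 had 22.1% ± 2.76 and 20.3% ± 3.19 (SD, n = 3 each). The body of the neighbouring gene BBX14 (chromosome 1, from 25708175) overlaps LBD42 on the end coordinate side. All sites in that window lay on the start coordinate side, within 25706001 to 25706900. To which gene they belong was not tested.

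Pollen genes and the remaining class I members other than LBD21 had mean coverage between 0% and 23.6%. LBD10, which acts in pollen development, had 13.3% ± 4.61 in GFP+ and 15.1% ± 4.07 in GFP- libraries, and LBD22, which acts with it, 22.2% ± 3.70 and 24.9% ± 4.49 (SD, n = 3 each). LBD27, SIDECAR POLLEN, had no site, with its nearest THS at 1180 bp in each library. LBD12 (ASL5) had 8.37% in 5 libraries and 15.2% in GFP+ replicate 2. LBD2 had 9.42%, 13.2% and 13.2% in GFP+ and 13.2%, 7.57% and 5.64% in GFP- libraries.

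The 8 members without a THS in the window were LBD13, LBD15, LBD20, LBD23, LBD24, LBD25, LBD26 and LBD27. Their nearest sites lay 1153 bp (LBD25) to 3921 bp (LBD26) away in the closest GFP+ library and 1153 bp to 3921 bp in the closest GFP- library. LBD20, a gene of jasmonate-related disease susceptibility, had its nearest site 3457 bp away in each GFP+ library and 3357 to 3557 bp away in the GFP- libraries. At LBD13 the distances were 1372, 1172 and 2773 bp in GFP+ libraries and 2773 bp in each GFP- library. GFP+ replicate 3 thus had the same value as the GFP- libraries. A gene without a listed site may hold sites below the authors' threshold.

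In the authors' deposited table, 32 of the 33 members stood in the column of genes with THSs in GFP+ cells (89.1% of all protein-coding genes), all but LBD26, and 21 in that for GFP- cells (72.3%). The GFP+ column of the authors' deposited table held 9 members whose window had no THS in any GFP+ library. One of them was LBD21. Over all genes in that column the share without a GFP+ THS in the window was 14.2%, and of the genes in the GFP- column the authors' deposited table held 0.0605% without a GFP- THS there. LOB, LBD29, LBD16 and LBD3 were among the members listed for GFP+ cells and not for GFP- cells in the authors' deposited table, and of these 4 LBD3 had its only THS in a GFP- library.

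Most covered bases of the family were shared. Of 119980 bp in the 33 windows, 36195 bp were covered in at least 1 library and 21757 bp in all 6, or 60.1% of the covered bases. Stretches covered in all GFP+ and no GFP- library summed to 672 bp in 4 members (LBD29, LBD36, LBD18 and LBD39). Those covered in all GFP- and no GFP+ library summed to 2231 bp in 5 members, with LBD11 (800 bp), LBD21 (700 bp) and LBD1 (531 bp) ahead of LBD38 and LBD41 with 100 bp each. Joined over the libraries, 53 regions reached into the windows. Scored over their whole length, also beyond the window, 38 had a THS in all 6 libraries. A further 1 had one in the GFP+ libraries alone and 3 in the GFP- libraries alone. Among the 38, a region at LBD29 (chromosome 3, 21546501 to 21547500) had no GFP- THS within the window. A region at LBD1 (chromosome 1, 2439101 to 2441900) had no GFP+ THS within the window. The region between LBD31 and LBD30 counts for both genes.

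By place, 18 members had THS bases in the gene body in at least 1 library (54.5%, against 69.8% of all genes), 7 in the flanks alone (21.2%, against 12.2%) and 8 in neither. Body coverage averaged 12.7% ± 1.69 in GFP+ and 15.3% ± 0.907 in GFP- libraries, and flank coverage 29.5% ± 1.55 and 29.4% ± 1.28 (SD, n = 3 each). The 3 members that were lower in GFP+ libraries had non-overlapping groups in the body and in the flanks. The 4 that were higher had them in the flanks, while their bodies overlapped between the groups. Another annotated gene reached into the windows of 19 members, and a site that touches such a gene cannot be assigned to 1 gene. Some of these windows, such as that of LBD15, held no site. At LBD21 the neighbour AT3G11100 lay beyond the end coordinate, and the only site ran across the start coordinate.

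**Figure D4:**
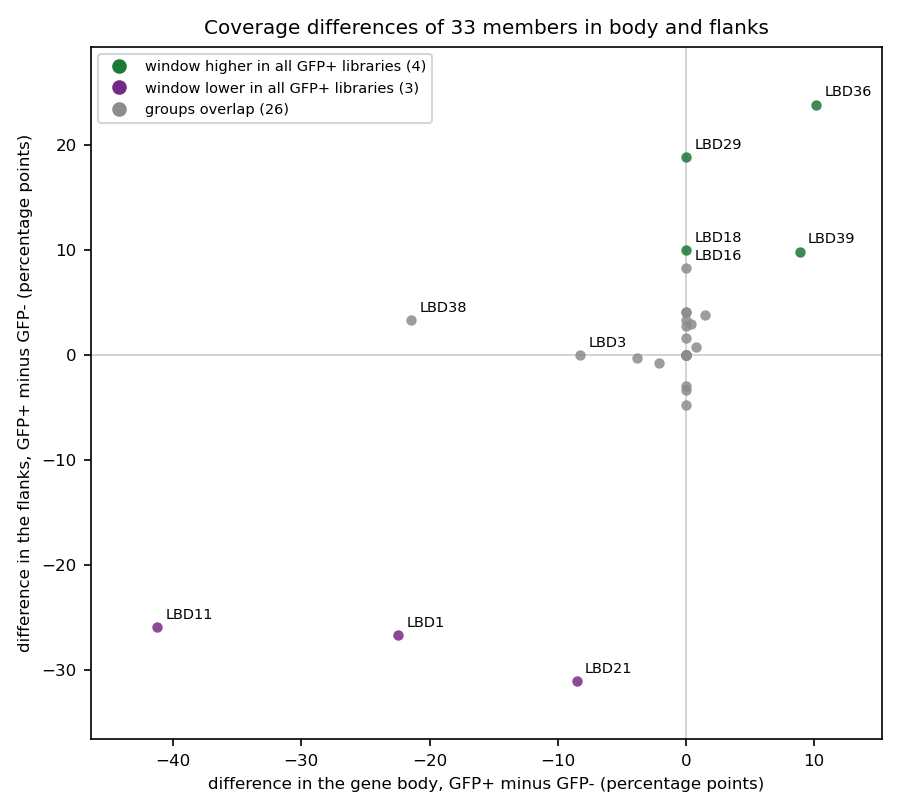
Difference in coverage between populations (GFP+ minus GFP-, percentage points) in the gene body (x axis) and in the 1000 bp flanks (y axis) for the 33 members, one point each. Colour shows whether the groups overlapped over the whole window. LBD11, LBD1 and LBD21 are negative on both axes, whereas LBD29 and LBD18 differ in the flanks alone.

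Genes that work with LBD proteins were read from a list of 28 partners and targets. In the limma fit 23 of them entered, and 0 passed an adjusted p under 0.05 in either direction, against 1.48% of all genes fitted. At an unadjusted p under 0.05, 2 were higher and 2 lower, against 3.84% and 6.95%. The median difference over the 28 was -0.0063 percentage points, against 0 over all genes. PUCHI, which acts beside LBD16 and LBD29 in lateral roots and is also known from floral organ formation, had 33.4%, 36.3% and 36.3% in GFP+ libraries and 0%, 19.9% and 13.5% in GFP- libraries. STM, the meristem homeobox gene, had 23.7%, 34.7% and 25.5% in GFP+ libraries and 21.9% in each GFP- library. At both genes all GFP+ values lay above all GFP- values (2.88% of all genes), and at the others the groups overlapped.

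Among the partners and targets with overlapping groups, ARF19 had 31.6% ± 2.05 in GFP+ and 32.4% ± 2.68 in GFP- libraries, and ARF7 had 1.63% ± 2.83 and 2.74% ± 1.49 (SD, n = 3 each). BAS1, the brassinosteroid-inactivating enzyme gene that LOB activates, had 49.1% ± 3.88 and 41.1% ± 3.23. GATA23, a lateral root founder cell gene, had 31.2% ± 4.16 and 42.0% ± 12.7, and E2FA 17.0% ± 1.02 and 16.5% ± 1.02 (SD, n = 3 each). Of the targets in nitrogen use and pigment, the nitrate reductase gene NIA2 had 17.0% ± 2.78 and 26.1% ± 5.57, and PAP2 was listed at 0 in all libraries.

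AS2, the family member left out of the set, had 59.0%, 59.0% and 56.9% in GFP+ libraries and 13.6%, 11.5% and 23.9% in GFP- libraries, and the groups did not overlap.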

How the data were processed

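Sample titles gave the groups and replicate numbers. The submitters' processing notes name the build TAIR10 and the tools SICER, bedtools 2.17.0, Picard 1.105, SAMtools 0.1.19 and BWA 0.7. What each tool did, the filters and thresholds, and any shift of reads were not given in the sources used here, nor was the way the controls entered. The authors deposited 1 site list per library, with a score per site on an unstated scale, used here to rank sites within a list, and a table of gene identifiers without values. Starts and ends lay on a 100 bp grid, and positions are printed from 1.

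Genes came from a RefSeq table of TAIR10.1 without strand or exons. All 33 loci matched. Sites were joined into 26792 regions where they overlapped or touched, and 1 bp anywhere in a region counted as present. Coverage was fitted with limma 3.58.1 (R 4.3.3; eBayes with a trend, no block), adjusted by Benjamini-Hochberg, and tested on simulated data. The labels do not say whether replicates came from separate sorts, so p-values measure the spread between these libraries. The lists give no counts, and precision rests on 3 libraries per group. The members and gene lists were chosen with earlier results of these data known. Planned motif and protein comparisons were not analysed here. Values in every library were to be given for DRNL, LOB, AS2 and members with non-overlapping groups, a region open in 1 group alone or a dTHS entry. The further members, partner genes and markers given by value were chosen after their values were seen.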

Additional observations from a re-analysis of the deposited data

How the results depend on the processing

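Of the 7 members with non-overlapping groups, none changed direction under any alternative, although LBD18 and LBD29 had a difference of 0 in the gene body alone. Members higher in all GFP+ libraries numbered 2 with 500 bp flanks (LBD18 and LBD39), 0 in the gene body alone and 1 with sites above the median score alone (LBD36). With 2000 bp flanks they numbered 5, with LBD16 and LBD17 added and LBD36 lost. With sites above the median score alone, 1 member was lower in all GFP+ libraries (LBD11). Without 1 library the counts ranged over 4 to 6 higher and 3 to 4 lower. The region of LBD29 was not counted with the same number of top-scoring sites (0 GFP+ regions) or with sites above the median score (0). The second setting counted 1 GFP- region, at LBD11 (chromosome 2, 12187101 to 12188100), where weaker GFP+ sites had been dropped. The LBD11 region open in GFP- libraries alone in the main setting (12186301 to 12187000) was lost, since its sites scored below the median.

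Members called lower by limma numbered 1 in flanks alone (LBD21), with sites above the median score (LBD11) and with the replicate block (LBD21), and 1 to 3 without 1 library. Members called higher numbered 1 on the logit scale (LBD29) and 0 to 1 without 1 library. Over all genes, 125 were called higher in flanks alone, 187 with the same number of top-scoring sites and 146 with sites above the median score, 1 higher and 29 lower with the replicate block, and 84 to 208 higher and 141 to 443 lower without 1 library. The cause of these changes was not tested. Deviations of same-numbered libraries correlated at 0.16, 0.067 and 0.039, so the numbers were not taken to pair them. GFP+ replicate 2 correlated best with GFP- replicate 3 (0.085). The other correlations between different numbers were negative (-0.145 to -0.0040). These values do not settle whether the libraries were paired.

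Unknown depth and 100 bp steps limit all values: weak sites such as those of LOB, LBD29 and LBD16 rank near the bottom of their lists.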

Other observations

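The 8 LBD loci outside the set were mostly closed. LBD5, LBD7, LBD8, LBD14 and LBD35 were listed at 0 in all 6 libraries. LBD28 had 38.0%, 38.0% and 31.7% in GFP+ libraries and 31.7% in each GFP- library. LBD32 had 26.5%, 30.4% and 30.4% in GFP+ and 26.5%, 34.2% and 30.4% in GFP- libraries. LBD9 had 0%, 2.32% and 0% in GFP+ and 0%, 10.3% and 10.3% in GFP- libraries, and the groups overlapped at all 3 of these genes.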
